A study of Mus musculus with 12 samples.

Results

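The MHC class II genes described here are Cd74, H2-Aa, H2-Ab1, H2-Eb1, H2-DMa, H2-DMb1 and Ciita, chosen by name as genes of antigen presentation. The rule itself uses no measured value, but the genes were chosen with earlier results of these data known. All 7 of 7 had a value, which makes them 7 of the 14201 genes measured and 22 of the 98975 probe sets that name a single gene. They were measured in granulocyte-monocyte precursors (GMPs), the bone marrow progenitors of granulocytes and monocytes, sorted from C57BL/6 mice of 4 genotypes with 3 Affymetrix Mouse Gene 1.0 ST arrays each. WT arrays came from wild-type mice, KO arrays from Gfi1 knock-out mice, wtKI arrays from human Gfi1-wt knock-in mice and SNP arrays from human Gfi1-SNP knock-in mice, whose allele the series' title calls SNP36N. Gfi1 is a DNA-binding repressor that takes part in the choice between the granulocyte and the monocyte fate. The labels at hand give no age, no sort markers and no word on whether an array holds 1 mouse or a pool. The p-values below therefore rest on the spread from array to array, part of which may be technical.

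Class II molecules are pairs of an alpha and a beta chain that show peptides from the endosome to CD4-positive T cells. The invariant chain, encoded by Cd74, holds the groove of a new molecule closed, proteases trim it to a short peptide, and the H2-DM heterodimer exchanges that peptide for another. Ciita is the coactivator that switches the whole set on, without binding DNA itself, through factors that sit on the X and Y boxes of the promoters, and the set is high in dendritic cells, macrophages and B cells. In C57BL/6 mice H2-Aa and H2-Ab1 form the I-A molecule, while the I-E alpha gene is defective, so that the chain of H2-Eb1 has no partner to reach the cell surface with.

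The 5 H2 genes lie in the MHC on chromosome 17. Short stretches of promoter are shown because the X and Y boxes, through which Ciita acts, lie just before the start of class II genes. RefSeq (GRCm38.p6) start-site windows of 250 bases before to 50 after the start were at hand for 4 of the 7 genes. They were searched on both strands for TGATTGG, a form of the Y box core, and for GNAAC, a short part of the X box, placed 15 to 45 bases before TGATTGG. These letters were picked with the promoters below in view, they do not overlap each other, and a match describes the letters and is not a shown binding site. TGATTGG occurred in 7.82% of all 32851 windows of this length and the pair in 0.852%. The windows of H2-Aa (chr17:34287852-34287933, minus strand), H2-Eb1 (chr17:34305746-34305827, plus strand) and H2-DMb1 (chr17:34153068-34153149, plus strand) held the pair, with 26, 25 and 26 bases between GNAAC and TGATTGG. Neither of the 2 windows of H2-DMa held TGATTGG. The same stretch is given for H2-Ob (chr17:34238786-34238867, plus strand), the beta chain of the H2-DM regulator H2-O, and for H2-DMb2 (chr17:34145097-34145178, plus strand), the near copy of H2-DMb1 that held TGATTGG alone. Capitals mark GNAAC and TGATTGG, and each line reads 5′ to 3′ on the strand of the gene.
H2-Aa: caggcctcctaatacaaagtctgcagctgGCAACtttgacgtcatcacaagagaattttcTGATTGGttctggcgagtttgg
H2-Eb1: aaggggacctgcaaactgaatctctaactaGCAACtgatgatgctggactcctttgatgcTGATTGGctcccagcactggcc
H2-DMb1: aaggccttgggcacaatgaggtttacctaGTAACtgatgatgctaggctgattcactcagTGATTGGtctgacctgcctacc
H2-Ob: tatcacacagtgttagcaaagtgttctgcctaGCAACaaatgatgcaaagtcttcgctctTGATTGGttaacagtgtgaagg
H2-DMb2: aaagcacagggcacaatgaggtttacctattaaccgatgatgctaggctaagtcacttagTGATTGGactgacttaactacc

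KO 1 and SNP 1 stood apart from the other arrays over the whole table, with median correlations of 0.70 and 0.633 with the other arrays against 0.836 to 0.886 for the remaining 10. Every comparison is therefore given over 12 arrays and over the 10 arrays without these 2. WT 3, wtKI 2 and wtKI 3 were low for Y-linked genes (means 3.17, 2.96 and 3.13), and the other arrays were at 7.51 to 8.20. Y-linked expression was thus unbalanced between the genotypes, and it entered the fits only as an alternative. The mean of 8 GMP markers (among them Mpo, Cd34, Kit and Cebpa) lay between 9.62 and 10.15 on 11 arrays and at 8.62 on SNP 1 (log2 signal). Kit was at 6.29 on SNP 1 and between 8.01 and 8.97 on the other 11 arrays. The gene value of Gfi1 was 5.90 ± 0.31 in WT and 6.56 ± 0.22 in KO (SD, n = 3), and this does not check the KO label, since nothing at hand says which exons were deleted. All levels below are log2 signals, differences are on the same log2 scale with the standard error of the limma fit, and adjusted p-values are limma's with Benjamini-Hochberg adjustment over all 14201 genes.

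Cd74, the invariant chain, was low on most arrays and high on a few. It was at 5.12, 5.62 and 5.66 on WT 1 to WT 3 and at 7.09, 5.24 and 5.15 on KO 1 to KO 3. The wtKI arrays read 5.53, 5.37 and 7.47 and the SNP arrays 9.86, 5.11 and 5.71. SNP 1 was thus the highest array, followed by wtKI 3 and KO 1, and the other 9 arrays lay within 5.11 to 5.71. The 5th percentile of an array was at most 5.65, and at least 5.30 without KO 1 and SNP 1. Probe sets 10456008, 10456015 and 10456017 lay under the 5th percentile of the array on 3, 6 and 5 of the 12 arrays. The low values of Cd74 are thus near the floor of the signal. No pair of genotypes was separated on 12 arrays. The 3 probe sets of Cd74 did not share the high value of wtKI 3, where they read 5.79, 7.47 and 7.91, while on SNP 1 they read 8.05, 9.86 and 10.25.

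H2-Aa, the alpha chain of I-A, followed a like course. WT arrays were at 6.01, 6.73 and 6.06, KO arrays at 7.69, 6.59 and 6.25, wtKI arrays at 5.77, 7.28 and 6.13 and SNP arrays at 8.98, 5.50 and 6.18. SNP 1 and KO 1 were the 2 highest arrays and SNP 2 the lowest, so that the SNP group held both ends of the range. The high value on SNP 1 came mainly from probe set 10450156 (10.36, against 4.37 and 5.71 on SNP 2 and SNP 3), while 10450160 was at 7.61 there and at 6.62 and 6.65 on SNP 2 and SNP 3.

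H2-Ab1, the beta chain of I-A, was measured by 4 probe sets that were all highest on SNP 1. Its value was 6.95, 6.93 and 6.44 in WT and 7.68, 7.28 and 7.28 in KO. In wtKI it was 6.22, 7.38 and 6.23, and in SNP 9.85, 6.79 and 7.02. The 3 KO arrays all lay above the 3 WT arrays, also without KO 1, which made H2-Ab1 the only member that did so. The wtKI arrays lay on both sides of WT, with wtKI 2 inside the KO range. Every probe set of the deposited table reaches at least 6.14 on some array, and probe set 10444294 did so on SNP 1 alone (8.11), so that its place in the table rests on that array.

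H2-Eb1, the beta chain of I-E, was at 6.03, 5.95 and 6.50 in WT, 7.18, 6.42 and 5.48 in KO, 6.68, 6.73 and 6.55 in wtKI and 8.06, 6.25 and 6.43 in SNP. The wtKI arrays lay close together and above all WT arrays, while the KO arrays ran from below the WT arrays to above them. SNP 1 and KO 1 were again the highest.

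**Figure D1:**
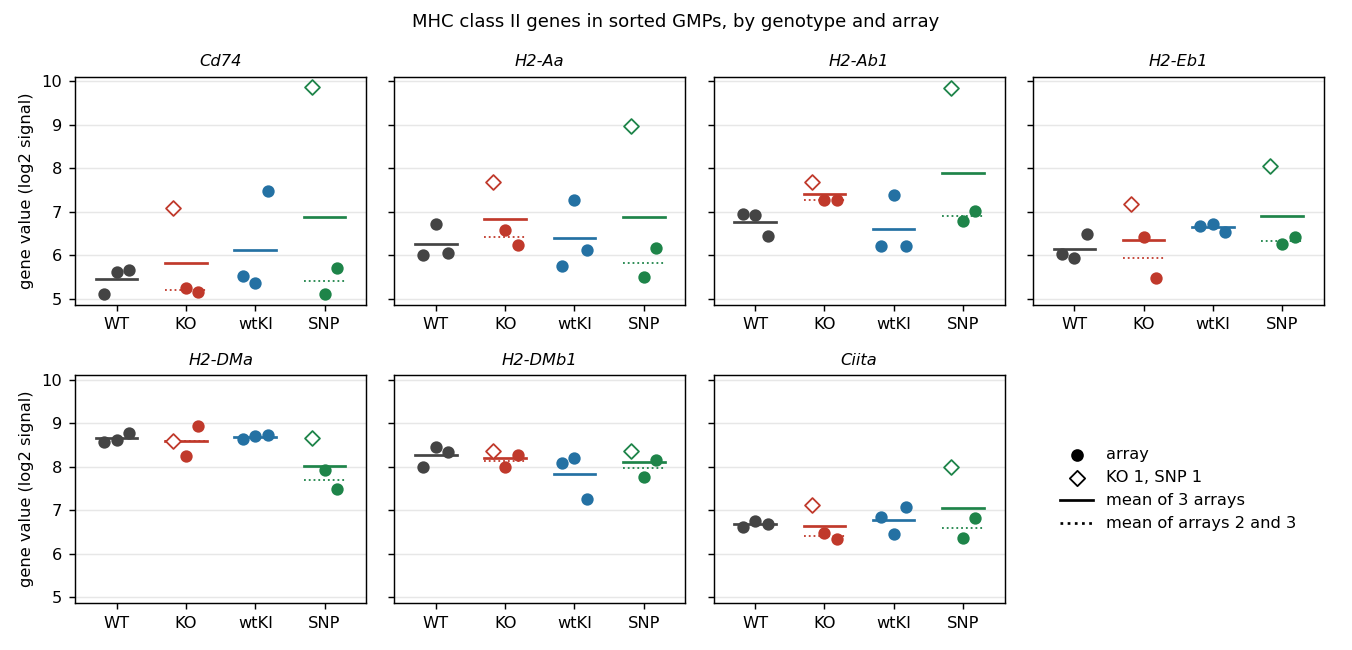
Gene values (log2 signal, y axis) of the 7 MHC class II genes on the 12 arrays by genotype (x axis). Points are arrays, open diamonds are KO 1 and SNP 1, solid lines are means of 3 arrays and dotted lines are means of arrays 2 and 3. SNP 1 lies far above the other SNP arrays for Cd74 (9.86), H2-Ab1 (9.85), H2-Aa (8.98), H2-Eb1 (8.06) and Ciita (7.998), and within the range of the other arrays for H2-DMa (8.65) and H2-DMb1 (8.37).

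H2-DMa and H2-DMb1 encode the chains of the peptide exchanger H2-DM. H2-DMa was at 8.57, 8.62 and 8.77 in WT, 8.60, 8.24 and 8.94 in KO, 8.65, 8.70 and 8.72 in wtKI and 8.65, 7.92 and 7.48 in SNP. SNP 2 and SNP 3 were the lowest of all 12 arrays, and SNP 1 lay among the other genotypes. Of its 5 probe sets, 10444233 and 10444234 were lower on SNP 2 (9.22 and 7.51) and SNP 3 (8.72 and 7.48) than on any other array. Probe set 10444231 overlapped the other arrays on SNP 2 and SNP 3 (8.68 and 8.60). Probe set 10444232 was low on all 3 SNP arrays, at 6.46, 6.93 and 6.13, with KO 2 at 6.601 and the other arrays between 7.15 and 7.97.

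H2-DMb1 was at 8.004, 8.46 and 8.33 in WT, 8.36, 7.99 and 8.26 in KO, 8.08, 8.20 and 7.25 in wtKI and 8.37, 7.76 and 8.16 in SNP. Only wtKI 3 stood off, below the other 11 arrays. This value rests on 1 probe set, since 2 further probe sets match H2-DMb1 and H2-DMb2 alike and were not used for the gene. Both shared probe sets were highest on SNP 1. There 10444239 read 9.14, against 7.21 and 7.04 on SNP 2 and SNP 3, and 10444240 read 9.37, against 7.25 and 7.72.

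Ciita, the transactivator, was at 6.62, 6.76 and 6.69 in WT, 7.12, 6.47 and 6.34 in KO, 6.83, 6.44 and 7.07 in wtKI and 7.998, 6.36 and 6.82 in SNP. SNP 1, KO 1 and wtKI 3 were its 3 highest arrays, the same 3 arrays as for Cd74. The 5 probe sets of Ciita did not move together. On KO 1 10433518 read 9.35 and 10433529 read 6.10, and 10433519 ranged from 3.36 on KO 2 to 8.37 on wtKI 3, so that the gene value depends on how the probe sets are combined.

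**Figure D2:**
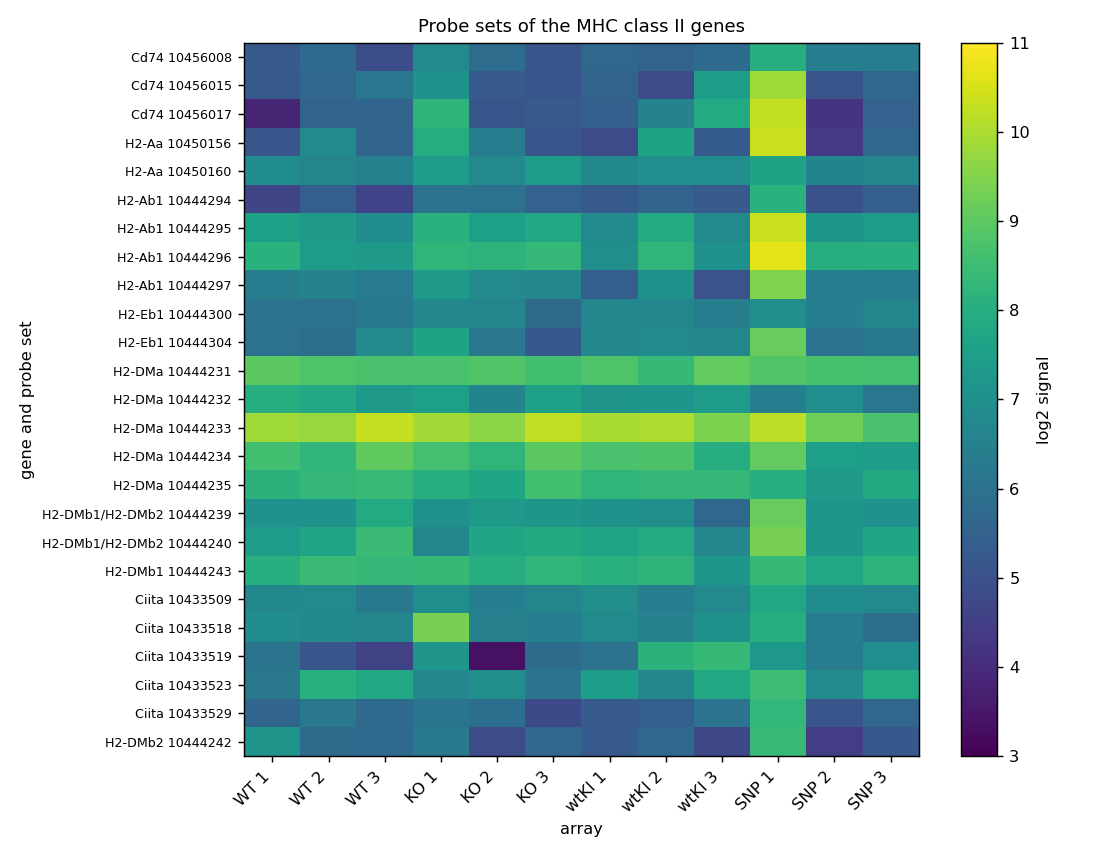
Log2 signal (colour) of each probe set of the MHC class II genes (rows, with the 2 probe sets shared by H2-DMb1 and H2-DMb2 and the probe set of H2-DMb2) on the 12 arrays (columns). Of the 22 probe sets that name a member alone, 15 are highest on SNP 1, where 17.2% of all probe sets are, while among the 5 probe sets of H2-DMa only 10444234 is (9.07). The 15 include 10444294 of H2-Ab1, which is in the table only through SNP 1.

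The excess of SNP 1 was large and uneven over the set. Against the mean of SNP 2 and SNP 3, SNP 1 was higher by 4.45 for Cd74, 3.14 for H2-Aa, 2.94 for H2-Ab1, 1.71 for H2-Eb1 and 1.41 for Ciita, and by 0.95 for H2-DMa and 0.41 for H2-DMb1. In all 5 of 7 members were higher by over 1, where 7.7% of all genes were, and 5 of 7 were highest on SNP 1 among the 12 arrays, where 20% of all genes were. KO 1 was above the mean of KO 2 and KO 3 for 7 of 7 members, by 1.89 for Cd74, 1.27 for H2-Aa and 1.23 for H2-Eb1 and by 0.01 to 0.71 for the others. There 3 of 7 were higher by over 1, against 5.05% of all genes, and 0 of 7 were lower by over 1, against 9.63%. KO 1 was the highest array for 0 of 7, where it was for 14.2% of all genes, and SNP 1 was lower by over 1 for 0 of 7, where it was for 12.4%. These are single arrays set against others of their group, with no test.

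Neighbouring genotypes in the order of the means could not be told apart for any member. For Cd74 and H2-Eb1 the order from high to low was SNP, wtKI, KO, WT, for H2-Aa it was SNP, KO, wtKI, WT, for H2-Ab1 SNP, KO, WT, wtKI and for Ciita SNP, wtKI, WT, KO. For H2-DMa it was wtKI, WT, KO, SNP and for H2-DMb1 WT, KO, SNP, wtKI. The SNP group came first for 5 members, and for each of them the mean of SNP 2 and SNP 3 alone was below the highest mean of the other groups. The smallest adjusted p of any pair of genotypes was 0.302, for H2-DMa in SNP against WT.

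KO against WT asked what the loss of Gfi1 changes. No member passed the test. Limma called 0 of 7 members, with 0 of 7 at an unadjusted p under 0.05, and 0% of all genes were called. H2-Ab1 was 0.64 ± 0.66 above WT and H2-Aa 0.58 ± 0.77, followed by Cd74 at 0.36 ± 1.07 and H2-Eb1 at 0.20 ± 0.48. H2-DMa (-0.06 ± 0.27), H2-DMb1 (-0.06 ± 0.27) and Ciita (-0.04 ± 0.37) were close to 0, all 7 with adjusted p = 1. The median over the members was 0.20, beside -0.02 over all genes. H2-Ab1 alone did not overlap between the groups, 1 of 7, where 11.8% of all genes did not.

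Without KO 1 and SNP 1 the KO differences changed sign for Cd74 (-0.27 ± 0.54) and H2-Eb1 (-0.21 ± 0.27) and the median was -0.14, while H2-Ab1 stayed above WT by 0.50 ± 0.33 (95% confidence interval -0.24 to 1.25, adjusted p = 0.893). Ciita was -0.28 ± 0.21 on these arrays, with KO 2 and KO 3 below all WT arrays (adjusted p = 0.92). On the 10 arrays 2 of 7 members did not overlap, where 24.9% of all genes did not, and 0 of 7 were called, where 0.0282% of all genes were.

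SNP against wtKI set the human knock-ins side by side, to find genes that depend on the SNP form, which is the question the study names. All SNP arrays were high for Y-linked genes, and of the wtKI arrays only wtKI 1 was. Limma called 0 of 7 members, with 1 of 7 at an unadjusted p under 0.05, and 0% of all genes, of which 8.84% were at an unadjusted p under 0.05. That 1 was H2-DMa, which was -0.67 ± 0.27 (95% confidence interval -1.27 to -0.07, limma adjusted p = 0.551). The other 6 members were above wtKI without passing: H2-Ab1 by 1.28 ± 0.66, Cd74 by 0.77 ± 1.07, H2-Aa by 0.49 ± 0.77, Ciita by 0.28 ± 0.37, H2-Eb1 by 0.26 ± 0.48 and H2-DMb1 by 0.25 ± 0.27 (adjusted p between 0.552 and 0.845). The median was 0.28, beside -0.02 over all genes, and 0 of 7 members did not overlap, where 14.6% of all genes did not.

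On the 10 arrays 5 of 7 members were lower in SNP than in wtKI, with a median of -0.31. Cd74 was at -0.72 ± 0.54, H2-Aa at -0.56 ± 0.42, H2-Eb1 at -0.31 ± 0.27 and Ciita at -0.19 ± 0.21, each with the sign turned from the 12 arrays. H2-DMa was at -0.99 ± 0.22 (95% confidence interval -1.48 to -0.50, limma adjusted p = 0.436), with SNP 2 and SNP 3 below all wtKI arrays. It shared this lack of overlap with H2-Eb1, 2 of 7 members, where 22.8% of all genes did not overlap. Neither of these passed.

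SNP against WT gave 0 of 7 called and 0% of all genes called. Cd74 was 1.42 ± 1.07 and H2-Ab1 1.11 ± 0.66 above WT, H2-Eb1 0.75 ± 0.48, H2-Aa 0.62 ± 0.77 and Ciita 0.37 ± 0.37, with adjusted p from 0.387 to 0.67. H2-DMb1 was at -0.17 ± 0.27 and H2-DMa at -0.63 ± 0.27 (adjusted p = 0.302), the 1 of 7 with an unadjusted p under 0.05, which 15.9% of all genes had. The arrays of these groups overlapped for all 7 members, while 25.8% of all genes did not overlap. The SD of Cd74 was 2.59 in SNP and 0.30 to 1.17 in the other genotypes. On the 10 arrays Cd74 was at -0.06 ± 0.54, H2-Aa at -0.43 ± 0.42, H2-Ab1 at 0.13 ± 0.33 and H2-DMa at -0.95 ± 0.22 (limma adjusted p = 0.159). H2-DMa was then the 1 of 7 that did not overlap, where 35.8% of all genes did not.

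wtKI against WT set the human Gfi1-wt knock-in beside the wild type and uses the levels of neither KO 1 nor SNP 1. Limma called 0 of 7 members, with 0 of 7 at an unadjusted p under 0.05, and 0% of all genes. H2-Eb1 was 0.49 ± 0.48 above WT and did not overlap, 1 of 7 members, where 12.6% of all genes did not. With the spread taken from the 10 arrays, H2-Eb1 was at 0.49 ± 0.24 (limma adjusted p = 0.706). Cd74 was at 0.66 ± 1.07, and without wtKI 3 at -0.02. H2-DMb1 was at -0.42 ± 0.27, the smallest p of the set (limma adjusted p = 1), and without wtKI 3 at -0.13. H2-Aa was at 0.13 ± 0.77, Ciita at 0.09 ± 0.37, H2-DMa at 0.04 ± 0.27 and H2-Ab1 at -0.16 ± 0.66.

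SNP against KO gave 0 of 7 called, where 0.0141% of all genes (2 genes) were, and 0 genes were called with the replicate number as a block. H2-DMa was at -0.57 ± 0.27 (adjusted p = 0.413) and at -0.89 ± 0.24 on 10 arrays (adjusted p = 0.186), where 50.5% of all genes did not overlap and 3 of 7 members did not. The others of those 3 were H2-Aa (-0.58 ± 0.46) and H2-Ab1 (-0.37 ± 0.37), which on 12 arrays were at 0.04 ± 0.77 and 0.47 ± 0.66. Cd74 was at 1.06 ± 1.07 (adjusted p = 0.675), H2-Eb1 at 0.55 ± 0.48, Ciita at 0.42 ± 0.37 and H2-DMb1 at -0.11 ± 0.27.

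KO against wtKI gave 0 of 7 called and 0% of all genes, with H2-Ab1 at 0.80 ± 0.66 (adjusted p = 0.999) and 0 of 7 without overlap, where 10.9% of all genes did not overlap. On 10 arrays Cd74 (-0.93 ± 0.54) and H2-Eb1 (-0.70 ± 0.27, adjusted p = 0.52) were lower in KO without overlap, 2 of 7, where 26.7% of all genes did not. For Cd74, KO 2 and KO 3 (5.24 and 5.15) and wtKI 1 and wtKI 2 (5.53 and 5.37) were near the floor, and wtKI 3 was at 7.47. On 12 arrays Cd74 and H2-Eb1 were at -0.30 ± 1.07 and -0.29 ± 0.48, H2-Aa at 0.45 ± 0.77, H2-DMb1 at 0.36 ± 0.27, Ciita at -0.14 ± 0.37 and H2-DMa at -0.10 ± 0.27. The difference between SNP minus wtKI and KO minus WT also gave 0 of 7 called and 0% of all genes. H2-DMa had the smallest p in that test (-0.61 ± 0.39, limma adjusted p = 0.991), and on 10 arrays it was at -0.92 ± 0.31 (limma adjusted p = 0.523). On 12 arrays the others were H2-Ab1 at 0.64 ± 0.93, Cd74 at 0.41 ± 1.51, Ciita at 0.32 ± 0.52, H2-DMb1 at 0.31 ± 0.38, H2-Aa at -0.08 ± 1.08 and H2-Eb1 at 0.06 ± 0.68. The 6 pairwise comparisons share groups and are not independent of each other.

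**Figure D3:**
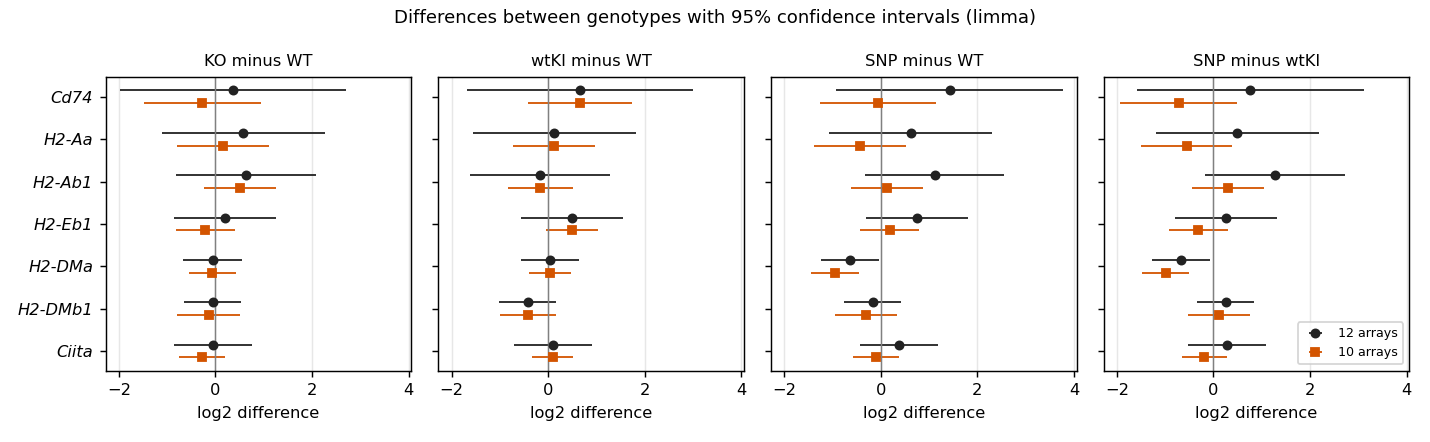
Log2 differences (x axis) of the 7 MHC class II genes in 4 comparisons with their 95% confidence intervals from limma, over 12 arrays (black circles) and over the 10 arrays without KO 1 and SNP 1 (orange squares). In SNP minus WT Cd74 moves from 1.42 to -0.06 between the 2 sets of arrays, while H2-DMa is below 0 in both (-0.63 and -0.95).

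The other genes of the class II route were taken from a list of 12 further chains, proteases and regulators of surface class II, of which 11 were measured. None of them passed in KO against WT on 12 arrays, where 0% of all genes did. An unadjusted p under 0.05 was seen for 5 of 11, beside 4.72% of all genes. Also 5 of 11 did not overlap and lay higher in KO, where 11.8% of all genes did not overlap in either direction. On the 10 arrays 5 lay higher and 1 lower without overlap, where 24.9% of all genes did not overlap. Lgmn, the asparagine endopeptidase legumain that begins to cut the invariant chain, was at 5.54, 5.11 and 5.16 in WT and 6.70, 6.26 and 6.94 in KO. Its difference was 1.36 ± 0.46 (adjusted p = 0.802) on 12 arrays and 1.33 ± 0.23 (adjusted p = 0.108) on 10. The wtKI arrays (6.24, 5.90 and 6.17) and the SNP arrays (7.84, 5.92 and 5.68) also lay above all WT arrays, so that for Lgmn the WT arrays were the lowest of the 12.

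Ctss, cathepsin S, the main protease of the last step of invariant chain removal in dendritic and B cells, was also lowest on the WT arrays. It was at 8.20, 8.63 and 8.55 in WT, 9.87, 9.25 and 9.25 in KO, 9.24, 8.92 and 8.79 in wtKI and 10.23, 9.22 and 8.94 in SNP. All 9 arrays of the other genotypes lay above the WT arrays, with KO minus WT at 0.99 ± 0.32 (adjusted p = 0.802). Ifi30, the thiol reductase GILT of the endosome, was at 7.70, 7.48 and 7.09 in WT and 8.43, 8.37 and 8.39 in KO, a difference of 0.97 ± 0.29 (adjusted p = 0.713). In wtKI it was at 7.63, 7.50 and 7.05, overlapping WT, and in SNP at 8.90, 8.06 and 7.73, above both. With arrays weighted by their quality, an alternative run on these genes after their values were seen, Lgmn, Ctss and Ifi30 passed in KO against WT (1.07, 0.81 and 0.99, limma adjusted p = 0.0233, 0.0229 and 0.014). That setting called 495 of all 14201 genes in this comparison, where equal weights called 0.

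H2-Oa, the alpha chain of H2-O, which restrains H2-DM, was at 6.23, 5.70 and 6.02 in WT and 7.54, 6.72 and 7.50 in KO (difference 1.27 ± 0.46, adjusted p = 0.917). It reached 8.05 on wtKI 3, where Cd74 was high too, and lay at 7.88, 6.83 and 6.69 in SNP. Its partner H2-Ob was high on KO 1 (8.67), wtKI 2 (8.27), wtKI 3 (8.03) and SNP 1 (8.90) and between 6.89 and 7.76 on the other arrays. KO minus WT was 0.39 ± 0.52 for H2-Ob (adjusted p = 1).

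Ctsl, cathepsin L, which cuts the invariant chain in thymic epithelium and is made by many cells, had the smallest p of this list in SNP against wtKI. The SNP arrays were at 7.25, 7.28 and 7.49, SNP 1 among them, and all other arrays were higher, with WT at 7.99, 7.93 and 7.90, KO at 8.43, 8.54 and 8.501 and wtKI at 7.99, 9.07 and 8.77. SNP minus wtKI was -1.27 ± 0.24 (limma adjusted p = 0.371) and SNP minus KO was -1.15 ± 0.24 (adjusted p = 0.217). The high arrays wtKI 2 and wtKI 3 were low for Y-linked genes, as was WT 3 (7.90), and wtKI 1 was not. With this as a term in the fit the difference was -0.98 (adjusted p = 0.948), and its part in the result was not otherwise tested. In SNP against wtKI Ifi30 was higher without overlap (0.84 ± 0.29, adjusted p = 0.551), so that 2 of 11 genes did not overlap, where 14.6% of all genes did not. Marchf1, the ligase that takes class II off the surface, and H2-DMb2 were 0.80 ± 0.61 and 0.77 ± 0.84 above wtKI on 12 arrays and -0.12 ± 0.28 and -0.41 ± 0.47 on 10, and SNP 1 was their highest array (8.87 and 8.39).

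**Figure D4:**
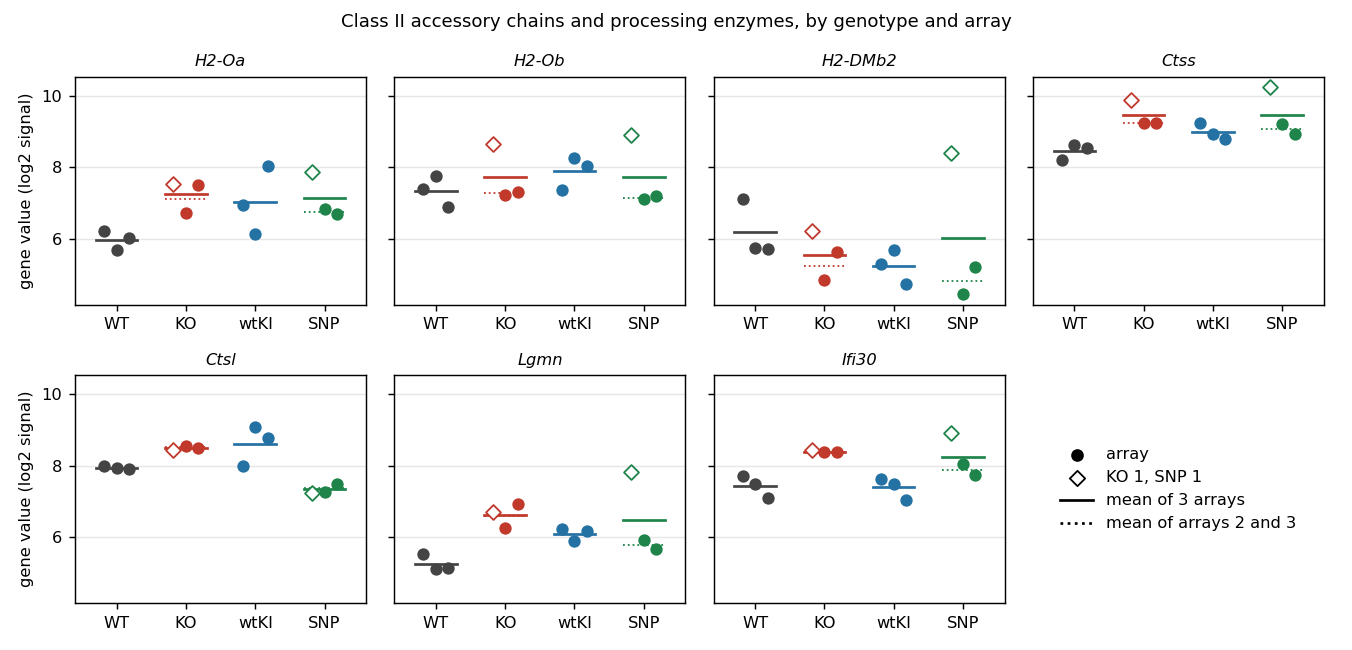
Gene values (log2 signal, y axis) of 7 other genes of class II loading and processing on the 12 arrays by genotype (x axis), drawn with open diamonds for KO 1 and SNP 1. Ctss and Lgmn are lower on the 3 WT arrays than on all others, and Ctsl is lower on the 3 SNP arrays (7.25 to 7.49) than on all others.

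The factors that act on class II promoters did not follow the class II genes on SNP 1. Of 7 (Rfx5, Rfxap and Rfxank of the RFX complex on the X box, Creb1, and the NF-Y subunits Nfya, Nfyb and Nfyc on the Y box) 2 (Rfxank and Nfyb) were higher on SNP 1 than the mean of SNP 2 and SNP 3, 0 by over 1. None passed in KO against WT, where 0% of all genes did, and 1 of 7 had an unadjusted p under 0.05, as 4.72% of all genes had. Rfxank was at 5.68, 6.14 and 6.25 in WT, 7.19, 6.43 and 6.67 in KO, 6.30, 6.74 and 6.28 in wtKI and 7.19, 7.20 and 6.32 in SNP. The WT arrays were thus its lowest, with the wtKI arrays above them too. It was 0.74 ± 0.29 above WT in KO and 0.88 ± 0.29 in SNP (adjusted p = 1 and 0.264).

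Of 8 measured regulators upstream of Ciita (the interferon-gamma receptor, its kinases, and interferon response factors among them), 0 passed in any comparison with 12 or 10 arrays. At most 0.0282% of all genes passed in any of these comparisons, so that 0 of 8 is near that share. Irf8, a factor of monocytes and dendritic cells, was at 8.75, 8.43 and 8.60 in WT and 7.56, 7.90 and 8.19 in KO (-0.71 ± 0.25, adjusted p = 0.888). It was lower on SNP 1 (7.61) than on SNP 2 and SNP 3 (8.32 and 8.02), against the direction of the class II genes. The remaining 7 of 8 were higher on SNP 1 than the mean of SNP 2 and SNP 3, 3 of them by over 1, where 7.7% of all genes were. The median over the 8 was 0.82, beside -0.06 for all genes. SNP 1 was the highest of the 12 arrays for 6 of 8, where it was for 20% of all genes. Irf1 (7.91) and Irf4 (7.32) were highest on SNP 1. The 3 measured genes of a list of T cell co-signalling molecules (Cd40, Icosl and Cd274) gave 0 called in KO against WT and in SNP against wtKI. On 12 arrays 0% of all genes were called in either.

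Class I genes, present on nearly all cells, gave a contrast within the same antigen presentation system. Of 13 genes of that pathway 4 were higher on SNP 1 than the mean of SNP 2 and SNP 3, with a median of -0.10, beside 1.71 for the 7 class II members and -0.06 for all genes. H2-K1, a class I heavy chain, was at 10.06 on SNP 1 and 10.11 and 10.02 on the other SNP arrays. H2-D1 (10.04, against 9.38 and 9.12) and B2m (11.51, against 11.22 and 11.29) were among the 4 that were higher. In all 3 of 13 were highest on SNP 1 among the 12 arrays, H2-D1 and B2m among them, where 20% of all genes were. No gene of it passed in KO against WT (median -0.02) or in SNP against wtKI (median -0.19), where 0% of all genes passed in either.

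By their medians, B-lineage, monocyte, late neutrophil and erythroid markers were higher on SNP 1 than on SNP 2 and SNP 3. They were also higher, less far, on KO 1 than on KO 2 and KO 3. The dendritic cell list had a median of 0.10 on SNP 1 and 0.41 on KO 1. The mean of 14 B-lineage genes was 8.55 on SNP 1 and 5.59 to 6.46 on the other 11 arrays, with KO 1 at 6.46, and 14 of 14 were above the mean of SNP 2 and SNP 3 (median 2.15). Ebf1, a factor that defines the B lineage, was at 9.38 on SNP 1, 7.01 on KO 1 and at most 4.66 elsewhere, and Pax5 and Rag1 were at 8.22 and 8.92 on SNP 1 and at most 5.82 and 5.37 elsewhere. Rag1 has 1 probe set, and every probe set of the table reaches at least 6.14 on some array. Its place in the table, and so its being highest on SNP 1, thus rests on that array. The only probe set of Ebf1 is in the table through SNP 1 and KO 1. Both genes are among the 14 counted. By group the range of the B-lineage mean was 5.73 to 5.81 in WT, 5.59 to 6.46 in KO, 5.84 to 5.93 in wtKI and 6.12 to 8.55 in SNP. On the 10 arrays other than these 2, between 2 and 6 of the 14 genes lay under the 5th percentile of their array.

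On SNP 1 9 of 14 dendritic cell genes were above the mean of SNP 2 and SNP 3, with a median difference of 0.10. Their mean was 6.65 to 6.80 in WT, 6.53 to 6.93 in KO, 6.56 to 6.92 in wtKI and 6.91 to 7.55 in SNP. Those high on SNP 1 included Siglech of plasmacytoid dendritic cells (8.72 on SNP 1), Ccr7 (8.83) and Cd209a (8.15, and 7.99 on KO 1), while Clec9a, Batf3 and Flt3 were at 6.15, 6.02 and 6.39 on SNP 1 and not above SNP 2 and SNP 3 there. Cd8a (8.17 on SNP 1) is among the 9, but its only probe set is in the table through SNP 1 alone. Siglech also read 7.25 on SNP 2, where Cd74 was at its lowest value. Monocyte and macrophage genes were above that mean on SNP 1 in 8 of 9 (median 1.36), with list means of 7.13 to 7.58 in WT, 7.22 to 7.56 in KO, 7.24 to 7.70 in wtKI and 7.05 to 8.38 in SNP.

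Late neutrophil and erythroid genes, which are not known for class II, were above it on SNP 1 in 14 of 14 and 8 of 8 (medians 3.66 and 3.77), and GMP genes were below it in 7 of 8 (median -1.60). These counts include Ly6g and Klf1, whose only probe sets reach 6.14 on SNP 1 alone and so are in the table through that array. On KO 1 the medians were 0.60 for the B-lineage, 0.41 for the dendritic cell, 0.14 for the monocyte, 0.67 for the late neutrophil, 1.11 for the erythroid and -0.52 for the GMP list, beside 0.71 for the class II members. By group, the late neutrophil mean was 6.27 to 7.34 in WT, 5.65 to 6.72 in KO, 6.50 to 7.002 in wtKI and 6.70 to 10.65 in SNP. The erythroid mean was 6.06 to 6.87 in WT, 6.09 to 7.62 in KO, 6.19 to 6.62 in wtKI and 6.56 to 9.75 in SNP. In sorted bulk samples like these, more cells of a type and more RNA per cell cannot be told apart. The part of these markers in the class II values was not tested. The class II differences of SNP against WT and of SNP against wtKI were smaller in size, or of the other sign, without SNP 1 for Cd74, H2-Aa, H2-Ab1, H2-Eb1 and Ciita.

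**Figure D5:**
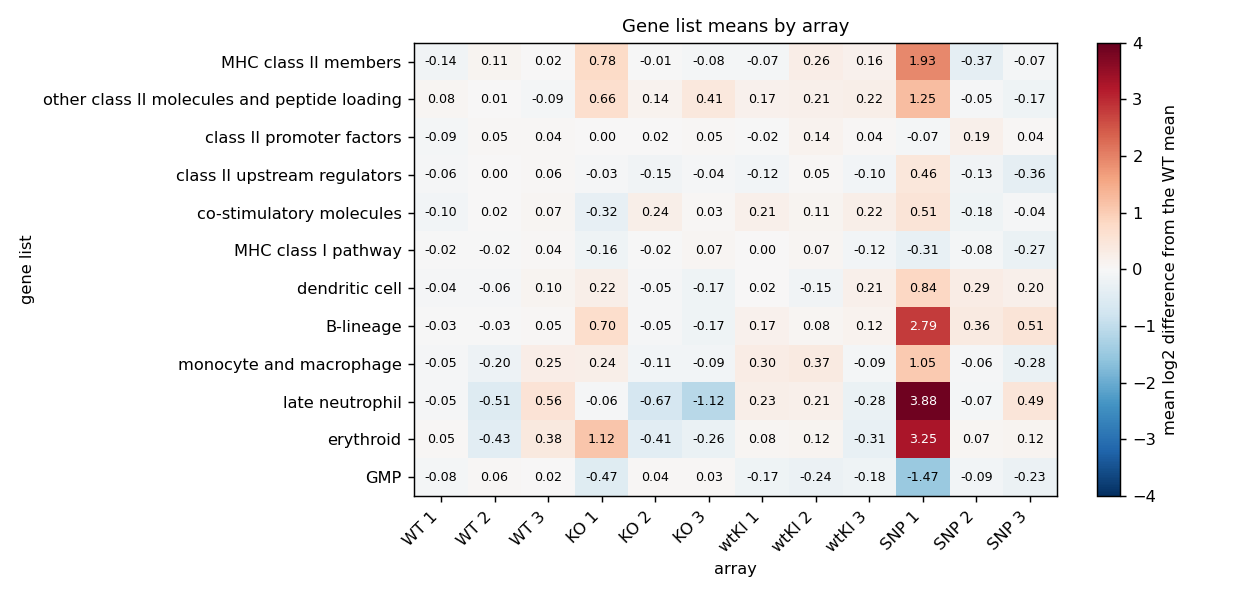
Mean log2 difference from the WT mean (colour and printed values) of 12 gene lists (rows) on the 12 arrays (columns). On SNP 1 the class II members are at 1.93, beside 2.79 for B-lineage, 3.88 for late neutrophil and 3.25 for erythroid genes and -0.31 for the class I pathway, and on the 10 arrays other than KO 1 and SNP 1 the class II members lie between -0.37 and 0.26.

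The members varied together on 12 arrays and much less on 10. Of 21 pairs, 10 had a Pearson correlation above 0.5 over 12 arrays (median 0.47) and 2 over 10 arrays (median 0.0004), with 10 of 21 below 0. Cd74 and Ciita kept the highest correlation of any pair, 0.96 over 12 and 0.80 over 10 arrays, and H2-Aa and H2-Ab1, the chains of I-A, went from 0.90 to 0.61. H2-Ab1 and Ciita went from 0.67 to -0.72. These are descriptions over arrays that share the effect of SNP 1, with no test.

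By the rule on likeness, the genes closest to the mean of the 7 members over 12 arrays were Fcrl1, a receptor of B cells, Ptprc, the leukocyte antigen CD45, Neurl3, Mxd1, an antagonist of Myc, and Irf7, an interferon response factor. Their Pearson correlations were 0.96, 0.96, 0.96, 0.95 and 0.95, and their Spearman correlations 0.55, 0.68, 0.60, 0.53 and 0.80. On the 10 arrays, which leave out the 2 arrays farthest from the median of the members' mean, the Pearson correlations were 0.27, 0.34, 0.29, 0.04 and 0.64, so that the relation rests on those arrays for the first 4, while Irf7 kept part of it. Over the 10 arrays the closest were Lat, an adaptor of T cell and mast cell receptors, Vrk3, Ddx58, the RNA sensor RIG-I, Abi3 and Lamtor4 (0.89, 0.89, 0.88, 0.88 and 0.86). Ddx58, Abi3 and Lamtor4 also reached 0.87, 0.88 and 0.86 over 12 arrays, while Lat was at 0.45 and Vrk3 at -0.34. Over the 10 arrays the members' own correlations with their mean ran from 0.06 (H2-Ab1) to 0.81 (H2-Aa). These are descriptions, with no test.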

How the data were processed

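Total RNA of sorted GMPs was amplified, labelled with biotin and hybridised to 1 array per sample, per the labels' protocols. The authors deposited log2 values per probe set. Per the submitters' processing notes these came from RMA, for which no source used here gives a version or settings. The table held 105661 probe sets, of which 98975 matched 1 gene symbol, 1703 several and 4983 none in the platform annotation, and 1752 symbols were updated through RefSeq. A gene value is the median polish of its probe sets with 1 symbol (median 5 per gene, 14201 genes). The number of arrays limits the precision.

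Genotypes were compared with limma 3.58.1 (R 4.3.3), by lmFit and eBayes over all 12 arrays with no covariate, on these log2 values, with Benjamini-Hochberg adjustment over all genes and a threshold of 0.05. The script was tested on simulated data. Intervals are 95% confidence intervals of the fit. Alternatives covered the gene summary, scaling, a filter on the dimmest 30% of genes, the arrays in the fit, the variance model, weights per array, a block for the replicate number, Y-linked expression as a term, and leaving out arrays.

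The replicate numbers come from the labels, which do not say what they mark. Deviations from the group means correlated between same-numbered arrays from -0.19 to 0.35 over 18 pairs, 4 of them above 0.1. All 3 pairs of KO with SNP were above 0.1 (0.35, 0.21 and 0.14), as was wtKI with SNP at number 2 (0.11). The main fits used no pairing, also for SNP against KO. The block alternative applied the replicate number to all 4 genotypes at once, and a fit that pairs KO with SNP alone was not run.

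The members and lists were chosen with earlier results of these data known. The text gives every member in every comparison over 12 arrays, members of other lists that passed the threshold, up to 4 per list with the largest differences in a described comparison, and the 5 genes most like the members' mean. Other genes named were chosen after their values were seen. Mmp8 (late neutrophil list) was the only list gene that passed in the fits of 12 or 10 arrays with equal weights, in KO against WT on 10 arrays (3.40 ± 0.37, limma adjusted p = 0.0382).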

Additional observations from a re-analysis of the deposited data

Results flagged for a closer look

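3 probe sets outside the gene values of the members read higher on SNP 1 than on any WT array. Probe set 10444239, which matches H2-DMb1 and its near copy H2-DMb2 alike, was at 9.14 on SNP 1, against 7.06, 7.08 and 7.89 in WT and 7.21 and 7.04 on SNP 2 and SNP 3. The second shared probe set, 10444240, was at 9.37 on SNP 1, against 7.43, 7.67 and 8.46 in WT. Probe set 10444242, which names H2-DMb2 alone, was at 8.39 on SNP 1, against 7.13, 5.76 and 5.73 in WT and 4.46 and 5.21 on SNP 2 and SNP 3. The probe set that names H2-DMb1 alone was at 8.37 on SNP 1, within the WT range.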

How the results depend on the processing

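No member was called in any of the 160 combinations of setting and comparison run, and the smallest adjusted p of a member was 0.106 (KO minus wtKI with array weights). H2-DMa in SNP minus wtKI stayed below 0, between -0.99 and -0.42 with all arrays or without KO 1 and SNP 1, and between -0.99 (without SNP 1) and -0.40 (without SNP 3) with 1 array left out. With array weights, a setting run for these genes after their values were seen, Ctss (0.81), Lgmn (1.07) and Ifi30 (0.99) passed in KO minus WT (limma adjusted p 0.0229, 0.0233 and 0.014). There 495 of all 14201 genes passed with array weights and 0 with equal weights. Array weights turned the sign of Cd74 (-0.19) in KO minus WT and with it the members' median (-0.19), of H2-Aa in wtKI minus WT (-0.074) and SNP minus WT (-0.038), of Cd74 (-0.058), H2-Eb1 (-0.17), Ciita (-0.053), H2-Oa (-0.19) and Lgmn (-0.24) in SNP minus wtKI, and of H2-Aa (-0.42), H2-Ab1 (-0.13) and H2-DMb1 (0.0090) in SNP minus KO. Without KO 1 and SNP 1 the sign turned for Cd74 (-0.27) and H2-Eb1 (-0.21) in KO minus WT, for Cd74 (-0.059), H2-Aa (-0.43) and Ciita (-0.098) in SNP minus WT, for Cd74 (-0.72), H2-Aa (-0.56), H2-Eb1 (-0.31), Ciita (-0.19), H2-Oa (-0.28) and Lgmn (-0.31) in SNP minus wtKI, and for H2-Aa (-0.58) and H2-Ab1 (-0.37) in SNP minus KO. The mean of the probe sets gave H2-DMa at -0.17 in wtKI minus WT and 0.00 in KO minus wtKI. The probe set with the highest mean gave H2-DMa -0.17 and 0.11 there, Ciita -0.036 in wtKI minus WT, H2-Oa -0.29 in SNP minus wtKI and H2-Aa -0.23 in SNP minus KO. Quantile normalization again gave H2-Aa -0.057 in SNP minus KO. With Y-linked expression as a term H2-DMa was at -0.0039 in wtKI minus WT and Cd74 at 0.10 in KO minus wtKI. Without the dimmest 30% of genes, which left 5 members, the median in KO minus wtKI was 0.36. The cause of these changes was not tested.

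Leaving out 1 array at a time gave members' medians of -0.14 (without KO 1) to 0.64 (without KO 3) in KO minus WT, -0.31 to 0.63 in SNP minus wtKI, -0.10 to 1.08 in SNP minus WT, -0.42 to 0.76 in SNP minus KO and -0.51 to 0.61 in the difference of differences. Signs turned for single genes. In KO minus WT the ranges were Cd74 -0.27 to 0.70, Ciita -0.28 to 0.11, H2-DMa -0.23 to 0.11, H2-DMb1 -0.19 to 0.046 and H2-Eb1 -0.21 to 0.64. In KO minus wtKI the ranges were Cd74 -0.93 to 0.38, Ciita -0.37 to 0.015, H2-DMa -0.27 to 0.078 and H2-Eb1 -0.70 to 0.15. In SNP minus KO the ranges were Cd74 -0.42 to 1.95, Ciita -0.054 to 0.76, H2-Aa -1.005 to 0.74, H2-Ab1 -0.51 to 1.02, H2-DMb1 -0.24 to 0.059 and H2-Eb1 -0.018 to 0.96. In SNP minus WT the ranges were Cd74 -0.059 to 2.31, Ciita -0.098 to 0.72 and H2-Aa -0.43 to 1.31. In SNP minus wtKI the ranges were Cd74 -0.72 to 1.66, Ciita -0.19 to 0.63, H2-Aa -0.56 to 1.19, H2-DMb1 -0.044 to 0.43, H2-Eb1 -0.31 to 0.59, H2-Oa -0.37 to 0.59 and Lgmn -0.31 to 0.77. In wtKI minus WT the ranges were Cd74 -0.017 to 1.03, Ciita -0.051 to 0.26, H2-Aa -0.31 to 0.44, H2-Ab1 -0.55 to 0.030 and H2-DMa -0.0063 to 0.095. Ctsl in SNP minus wtKI was at -1.58 (without wtKI 1, limma adjusted p = 0.0528) to -1.04 (without wtKI 2), and at -0.49 by its probe set with the highest mean.

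Over all genes, array weights called 495 in KO minus WT, 4 in wtKI minus WT, 4 in SNP minus WT, 522 in SNP minus KO, 745 in KO minus wtKI and 15 in the difference of differences, against 0, 0, 0, 2, 0 and 0 with equal weights. The mean of the probe sets called 3 in KO minus WT, 13 in SNP minus KO and 2 in the difference of differences. Fits of only the groups compared called 1 in KO minus WT, SNP minus wtKI and KO minus wtKI and 0 in SNP minus KO. The variance trend called 5 and the probe set with the highest mean 0 in SNP minus KO. The filter on dim genes called 1 in SNP minus WT and in SNP minus KO, and the 10 arrays called 4 in KO minus WT and 0 in SNP minus KO. With 1 array left out the counts ran from 0 to 5 in KO minus WT, 0 to 1 in wtKI minus WT, 0 to 2 in SNP minus WT, SNP minus wtKI and KO minus wtKI, and 0 to 3 in SNP minus KO and the difference of differences. With the replicate number as a block, or Y-linked expression as a term, SNP minus KO gave 0 genes. The block changed no other call, and with it the smallest adjusted p of a member was 0.289 (H2-DMa in SNP minus WT) and the members' median in KO minus WT 0.20.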
